A study of Homo sapiens with 18 samples.

Results

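The effect of OFD1 knockdown on gene expression was compared between 2 human pancreatic ductal adenocarcinoma cell lines, PANC1 and MIA PaCa-2. For each gene, the log2 change from control to knockdown in MIA PaCa-2 was subtracted from the same change in PANC1, and this difference was tested as an interaction term. A negative difference therefore means that the gene fell further, or rose less, in PANC1. The comparison used 12 of the 18 libraries of the series, 3 controls and 3 knockdowns of each line. Of the 26668 genes in the table, 9553 had a mean of at least 1 FPKM (reads counted on a gene, scaled for the length of the gene and for the reads of the library) in each line and were tested. The genes at the edge of this filter were SPAG16, kept with means of 1.001 FPKM in PANC1 and 1.129 FPKM in MIA PaCa-2, and MISP3, left out with 0.9985 and 1.221 FPKM.

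OFD1 encodes a protein of centrioles, basal bodies and centriolar satellites that is needed to build primary cilia, and its germline loss causes oral-facial-digital syndrome. The study followed OFD1 loss in pancreatic cancer cells, where DNA repair by homologous recombination, and BRCA1 within it, was of interest. Both lines were derived from primary tumors of the pancreas and grow attached.

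Knockdown cells of both lines were labeled as carrying a doxycycline-induced shRNA against OFD1 for 72 h, and control cells as wild type with a control shRNA and no treatment. The methods instead describe an inducible derivative of each line given DMSO or doxycycline, and the design text of the series speaks of the start and the end of the induction. The identity of the controls was therefore not settled, nor was whether they were harvested together with the knockdown cells, and any effect of time in culture cannot be told apart from that of the knockdown. Doxycycline was given to the knockdown cells of both lines and to no control, and its own effect cannot be told apart from that of the shRNA. Each line was an established culture, and nothing stated that the 3 libraries of a group came from separate cultures, so p-values measure the spread between these libraries, which may be technical.

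Reads counted per library, as recovered from the FPKM steps, ran from 32486284 to 39797284. Most replicates were close, with a median deviation per gene of 0.047 to 0.060 in log2 from the other libraries of the group, for PANC1 and for the MIA PaCa-2 knockdowns. MIA PaCa-2 control replicate 2 stood apart, at 0.40, and it enters every change in that line. Results whose call it ended, or that it moved by over 1.5 times, are also given without it. Of 6 epithelial markers, EPCAM and CDH1 had means between 6.05 and 8.53 FPKM in PANC1, and both were under 0.1 FPKM in MIA PaCa-2, while KRT8 and KRT18 were above 300 FPKM in every group. Summed endothelial markers reached at most 1.75 FPKM and summed erythroid markers 0.266 FPKM in any library.

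The targeted gene was checked first. OFD1, on chromosome X from 13714505 to 13773738 in RefSeq's GRCh38.p14, was at 5.5, 5.12 and 5.67 FPKM in the PANC1 controls and 2.8, 2.27 and 2.58 FPKM in the PANC1 knockdowns. The MIA PaCa-2 controls had 3.09, 2.27 and 3.2 FPKM and the knockdowns 1.76, 1.74 and 1.97 FPKM. Every knockdown library was below every control library of its line. The log2 change was -1.07 in PANC1 (limma adjusted p = 4.99e-05) and -0.61 in MIA PaCa-2 (limma adjusted p = 0.00219). The difference of -0.46 (SE 0.185) had a limma adjusted p of 0.0741 and did not pass the test. Across the alternatives tried, this adjusted p ranged from 0.0259 to 0.165. Without control replicate 2 the difference was -0.31, smaller and with a limma adjusted p of 0.047, below the threshold. The measured fall was larger in PANC1, but with all 12 libraries the test shows neither a difference in depth nor its absence. Any difference in depth cannot be told apart from the line in the differences below.

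BRCA1, a core protein of homologous recombination, fell in both lines. Its values were 6.33, 6.68 and 6.75 FPKM in the PANC1 controls against 1.89, 2 and 2.18 FPKM after knockdown. The MIA PaCa-2 controls had 10.4, 7.22 and 10.9 FPKM and the knockdowns 4.13, 4.01 and 4.08 FPKM. Log2 changes of -1.66 and -1.18 differed by -0.47 (SE 0.188, limma adjusted p = 0.0708), which did not pass the test and shows neither a difference nor its absence. Without control replicate 2 the difference was -0.29, smaller and with a limma adjusted p of 0.0142, below the threshold. Across the alternatives the difference lay between -0.58 and -0.29 and this adjusted p between 0.00678 and 0.186. Homologous recombination and Fanconi anemia genes as a group had 0 differences called by limma among 25 tested. Their median log2 change was -0.63 in PANC1 and -0.24 in MIA PaCa-2. By limma adjusted p alone 7 were more negative and 2 more positive in PANC1, and 13 had an unadjusted p below 0.05. DNA replication genes, such as helicase and polymerase subunits, had 0 called among 46, with medians of -0.78 and -0.59, and 2 without control replicate 2. By limma adjusted p alone 13 were more negative and 5 more positive, and 23 had an unadjusted p below 0.05. Over all 9553 genes tested, 5.17% were called, 35.4% passed by adjusted p alone, and 4296 had an unadjusted p below 0.05.

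Across all genes, a difference was called where the limma adjusted p was below 0.05 and its size at least 1 in log2, that is 2-fold. A total of 494 genes were called, 5.17% of those tested. In 141 of them (1.48% of genes tested) the change was more positive in PANC1, and in 353 (3.7%) it was more negative in PANC1. With the adjusted p alone, 3386 genes (35.4%) passed, of which 2001 (59.1%) were more positive in PANC1, so the majority direction turned with the size required. Without control replicate 2 this count was 3730 more positive and 2505 more negative. The median difference over all genes was 0.07, on the other side of 0 from most of the differences called.

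The genes called were then sorted by what each line did. A gene changed in opposite directions when both lines passed the test with at least 0.5 in log2 and opposite signs. It changed in 1 line only when that line passed the test with at least 1 in log2 and the other moved by less than 0.5. By this rule 97 genes (1.02% of those tested) moved in opposite directions, 88 (0.921%) in PANC1 only and 126 (1.32%) in MIA PaCa-2 only. The word only refers to size: 19 of the 88 and 27 of the 126 also passed the test in the other line with a small change. Another 29 moved the same way by unequal amounts, and 154 met none of these definitions.

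Low values touch some of these genes. Of the 494 genes, 68 (13.8%) had a mean under 1 FPKM in at least 1 condition of a line and passed the filter through the other condition, beside 2.83% of all genes tested, so these genes had to differ to some extent to be tested. Among the genes named here they were TTYH1, TUBB4A, RHBDL2, FAM222A, GDF15, IL32, TSC22D3, PRR19, PIK3IP1, EFEMP2, NUPR1, SLC7A11, CXCL2, TP53INP1, COL6A2 and ASNS. Adding 1 instead of 0.1 FPKM before taking logs brought the difference of PIK3IP1 to -2.36, of EFEMP2 to -1.70, of PRR19 to 1.502, of TUBB4A to -1.30 and of FAM222A to 1.09, each still called. It ended the calls of NUPR1 at -0.85, TP53INP1 at -0.70, TTYH1 at 0.95, ASNS at -0.83, NDRG1 at -0.57, COL6A2 at -0.86 and WIPI1 at -0.96. It also ended those of ASPM, ATF3, CXCL1, DNAJB9, EDEM1, ETV4 (-0.96), ITGAV and PSMB9 (-0.99), each lost in other settings too.

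**Figure D1:**
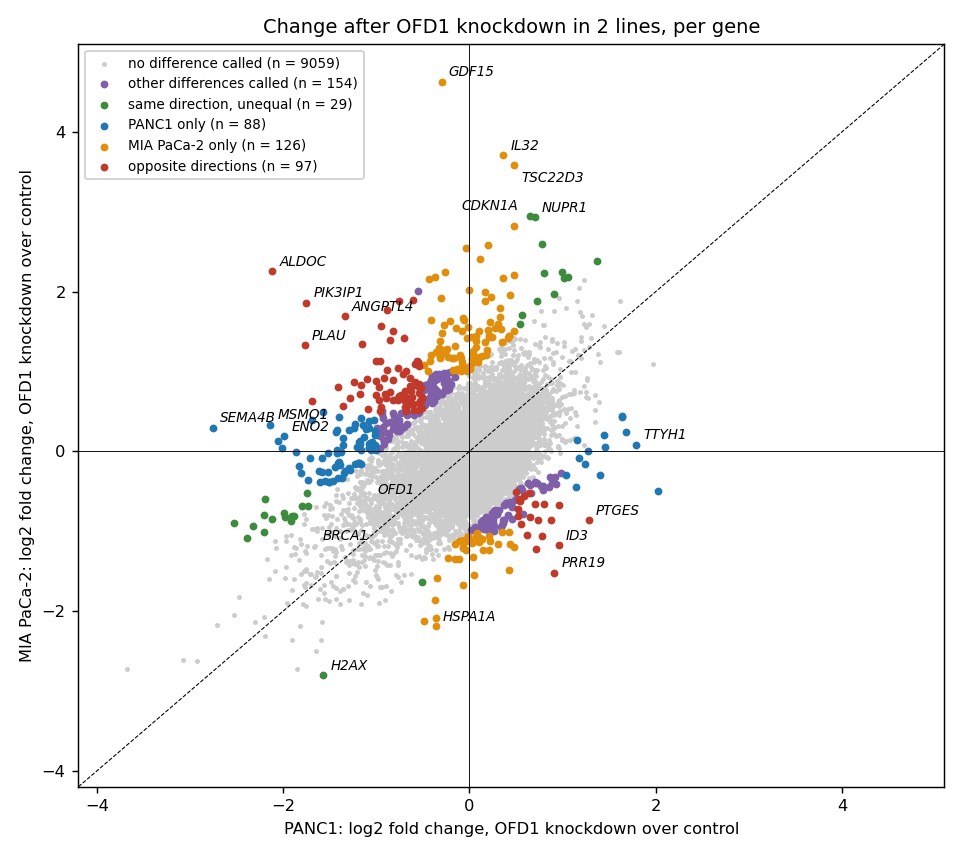
Log2 change after OFD1 knockdown in PANC1 (horizontal axis) against MIA PaCa-2 (vertical axis), 1 point per gene for the 9553 genes tested. Colors give the 494 genes with a difference called, gray the others, and the dashed line equal changes. Genes lower in PANC1 and higher in MIA PaCa-2, such as ALDOC at -2.12 and 2.25, fill the upper left.

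Opposite changes ran mostly one way. In 76 of the 97 genes, expression fell in PANC1 and rose in MIA PaCa-2, and in 21 it rose in PANC1 and fell in MIA PaCa-2. Genes that fell in PANC1 and rose in MIA PaCa-2 included the glycolytic enzyme ALDOC, the secreted proteins PLAU and ANGPTL4, and the PI3K inhibitor PIK3IP1. Genes that rose in PANC1 and fell in MIA PaCa-2 included ID2 and ID3, which encode inhibitors of basic helix-loop-helix factors, ODC1, the first enzyme of polyamine synthesis, and PTGES, which makes prostaglandin E2.

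ALDOC, a brain-enriched aldolase on chromosome 17 from 28573120 to 28576895, had 11.7, 13 and 11.3 FPKM in the PANC1 controls and 2.62, 2.65 and 2.76 FPKM after knockdown. The MIA PaCa-2 controls had 7.07, 8.78 and 6.35 FPKM and the knockdowns 35.5, 36.5 and 34.2 FPKM. All PANC1 knockdowns were below all PANC1 controls, and all MIA PaCa-2 knockdowns were above all of theirs. Such a lack of overlap was common, in 75.3% of genes tested in PANC1 and 59.5% in MIA PaCa-2. The difference was -4.37 (SE 0.15, limma adjusted p = 9.37e-09) and -4.50 without control replicate 2.

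PLAU, the urokinase plasminogen activator that starts pericellular proteolysis, lies on chromosome 10 from 73908832 to 73917494. Its PANC1 values were 142, 146 and 137 FPKM in the controls and 40.1, 43 and 41.2 FPKM after knockdown, and its MIA PaCa-2 values were 14.1, 14.6 and 15.1 FPKM and 37.2, 36.1 and 37.3 FPKM. Controls of MIA PaCa-2, replicate 2 included, lay close together, and neither line had overlapping groups. Here the log2 change was -1.77 in PANC1 and 1.33 in MIA PaCa-2, a difference of -3.10 (SE 0.0724, limma adjusted p = 6.36e-10).

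ANGPTL4, a secreted inhibitor of lipoprotein lipase, went from 37.6, 38.9 and 39.8 to 15.7, 14.5 and 15.6 FPKM in PANC1. MIA PaCa-2 libraries went from 5.14, 9.22 and 4.77 to 19.9, 19.5 and 20.3 FPKM, with control replicate 2 the highest control. Neither pair of groups overlapped, and the difference was -3.03 (SE 0.261, limma adjusted p = 1.31e-05). PIK3IP1, a membrane inhibitor of PI3K, was at 5.03, 5.23 and 5.41 and then 2.05, 0.971 and 1.6 FPKM in PANC1, and at 0.393, 0.681 and 0.507 and then 2.46, 2.13 and 1.86 FPKM in MIA PaCa-2. The fall and the rise were each larger than the spread of the libraries, with a difference of -3.62 (SE 0.33, limma adjusted p = 1.88e-05). EFEMP2, an elastic fiber protein, differed by -2.65 (SE 0.22, limma adjusted p = 1e-05), with log2 changes of -0.89 in PANC1 and 1.77 in MIA PaCa-2.

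Replicates of ODC1 lay close together. PANC1 controls had 59.2, 60.3 and 59 FPKM and knockdowns 104, 103 and 100.1 FPKM, and MIA PaCa-2 controls had 80.3, 74.5 and 76.9 FPKM and knockdowns 37.2, 36.7 and 36.9 FPKM. The gene rose by 0.78 in log2 in PANC1 and fell by 1.06 in MIA PaCa-2, and the difference of 1.84 had an SE of 0.0621 (limma adjusted p = 9.37e-09). ID3 had 52.8, 54.2 and 51.1 FPKM in the PANC1 controls and 102, 104 and 101 FPKM after knockdown. Its MIA PaCa-2 values were 195, 283 and 206 FPKM in the controls, of which replicate 2 was highest, and 101, 99.6 and 98.9 FPKM after knockdown. After knockdown the values of the lines met near 100 FPKM, from a lower start in PANC1 and a higher one in MIA PaCa-2, and the difference was 2.13 (SE 0.15, limma adjusted p = 3.09e-06).

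ID2 moved like ID3, from 1.71, 1.67 and 1.43 to 2.58, 3.04 and 2.47 FPKM in PANC1 and from 16, 9.28 and 15.9 to 5.57, 5.59 and 5.75 FPKM in MIA PaCa-2. Its control replicate 2 was the lowest MIA PaCa-2 control, whereas that of ID3 was the highest, and both genes kept their direction without it, at 2.20 and 1.97. PTGES rose from 15.3, 17.6 and 14.5 to 35.7, 37.8 and 41.9 FPKM in PANC1 and fell from 13.2, 19.1 and 14 to 8.05, 8.31 and 8.69 FPKM in MIA PaCa-2. The lines had like values in the controls, and the difference was 2.14 (SE 0.181, limma adjusted p = 1.13e-05). PRR19, a meiotic recombination factor at low levels here, differed most among these genes, by 2.43 (SE 0.287, limma adjusted p = 9.71e-05), with controls of 0.942, 0.637 and 0.973 FPKM in PANC1 and 2.05, 3.23 and 2.55 FPKM in MIA PaCa-2.

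**Figure D2:**
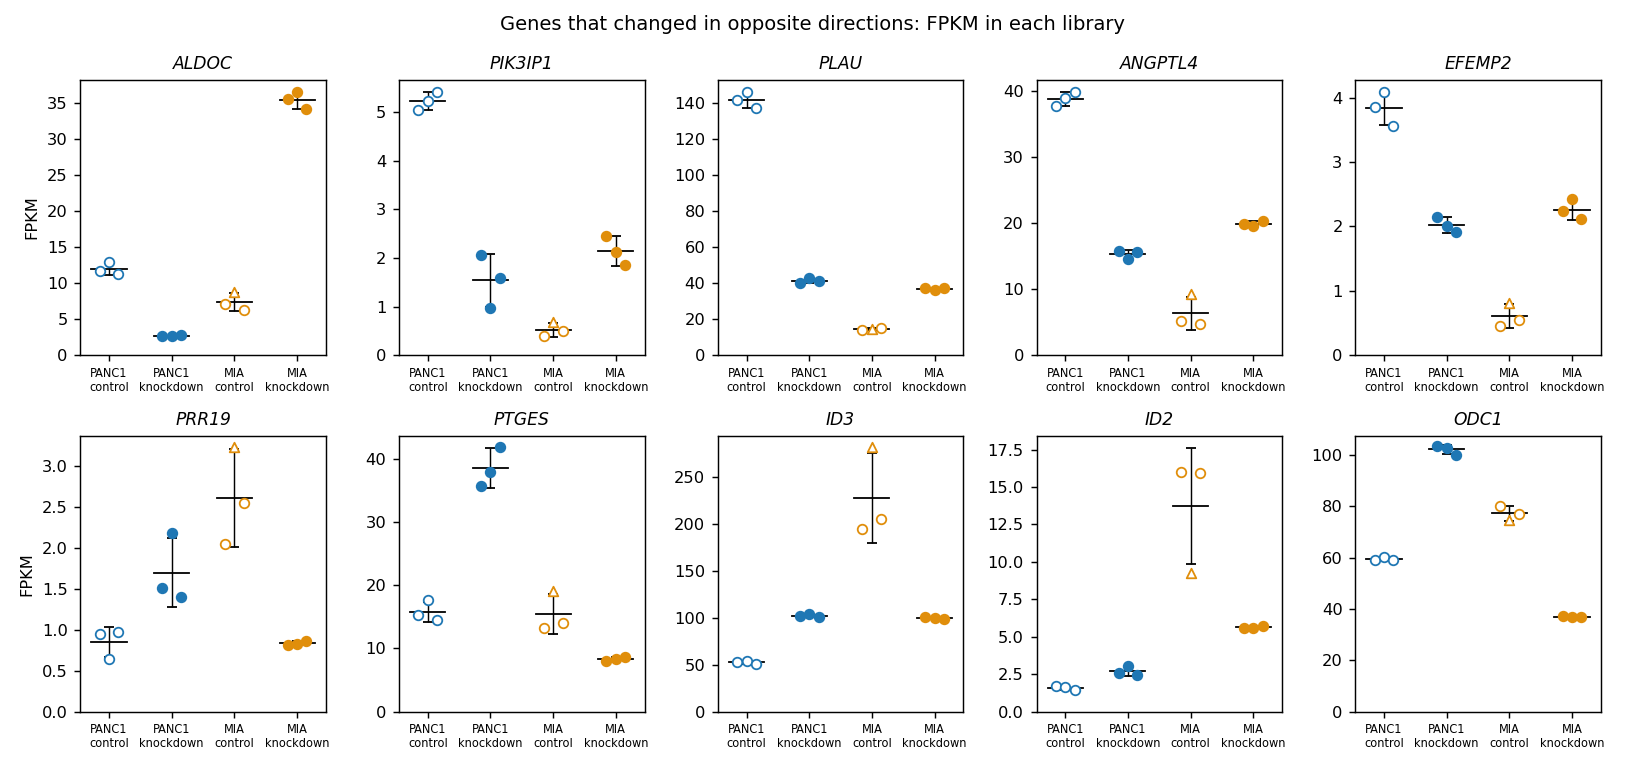
FPKM (vertical axes, from 0) of 10 genes that changed in opposite directions, in the 3 libraries of each of the 4 groups (horizontal axis). Open symbols are controls, filled symbols knockdowns, the triangle is MIA PaCa-2 control replicate 2, and bars are means with SD. ALDOC, PIK3IP1, PLAU, ANGPTL4 and EFEMP2 fall in PANC1 and rise in MIA PaCa-2, and the other 5 genes do the reverse.

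Of the 88 genes that changed in PANC1 only, 74 fell and 14 rose. Those with the largest differences included the semaphorin SEMA4B, the sterol methyl oxidase MSMO1, the tubulin TUBB4A and the neuronal enolase ENO2. SEMA4B, on chromosome 15 from 90184920 to 90229661, dropped from 215, 223 and 215 FPKM to 31.6, 32.4 and 32.3 FPKM in PANC1. MIA PaCa-2 values were lower, at 4.76, 7 and 5.24 FPKM in the controls and 6.77, 6.35 and 7.58 FPKM in the knockdowns, and the groups overlapped. The difference was -3.05 (SE 0.166, limma adjusted p = 4.44e-07).

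MSMO1, which removes methyl groups from lanosterol products on the way to cholesterol, fell from 71.7, 73 and 73.1 to 17, 15.9 and 16.3 FPKM in PANC1. The MIA PaCa-2 libraries had 17.8, 10.1 and 17.6 FPKM in the controls, with replicate 2 lowest, and 17.8, 18.9 and 18.9 FPKM after knockdown. Its change in that line was 0.33 in log2, or 0.07 without replicate 2, and the difference was -2.48 (SE 0.235, limma adjusted p = 2.53e-05). ENO2 was at 22.9, 20.8 and 23.2 FPKM and then 5.96, 5.23 and 5.45 FPKM in PANC1, a log2 change of -1.99, while MIA PaCa-2 gave 32.2, 38.2 and 31.5 FPKM in the controls and 39.9, 38.4 and 37.8 FPKM after knockdown. The MIA PaCa-2 groups overlapped through control replicate 2, and the difference was -2.18 (SE 0.118, limma adjusted p = 4.44e-07). TUBB4A, a beta-tubulin, differed by -2.19 (SE 0.253, limma adjusted p = 8.38e-05) and RHBDL2, a rhomboid protease, by -2.06 (SE 0.221, limma adjusted p = 5.25e-05).

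Rises in PANC1 only were smaller. PER2, a repressor of the circadian clock, rose from 3.48, 3.17 and 3.37 to 7.01, 7.51 and 7.93 FPKM in PANC1. Its MIA PaCa-2 values were 1.99, 2.08 and 2.05 FPKM in the controls and 1.59, 1.43 and 1.41 FPKM after knockdown, a log2 change of -0.44 that also passed the test (limma adjusted p = 0.000944) but not the size bound for an opposite change. The difference was 1.58 (SE 0.12, limma adjusted p = 5.18e-06). TTYH1, a membrane protein of the tweety family, rose from 0.58, 0.631 and 0.452 to 2.24, 2.33 and 1.88 FPKM in PANC1 and was higher in MIA PaCa-2, at 6.63, 9.38 and 5.84 FPKM in the controls and 7.54, 7.58 and 7.54 FPKM after knockdown. There the knockdowns lay inside the range of the controls, and the difference was 1.71 (SE 0.233, limma adjusted p = 0.000264). NTS, which encodes the peptide neurotensin, OSR1, a zinc-finger transcription factor, and AVPI1, a vasopressin-induced gene, had log2 changes of 1.68, 1.24 and 1.40 in PANC1 against 0.24, -0.16 and -0.29 in MIA PaCa-2.

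Of the 126 genes that changed in MIA PaCa-2 only, 90 rose and 36 fell. GDF15, a secreted stress hormone of the TGF-beta family on chromosome 19 from 18386158 to 18389176, gave the largest difference of any gene tested. In MIA PaCa-2 it was at 0.193, 0.731 and 0.343 FPKM in the controls and 10.9, 12 and 12.1 FPKM after knockdown. PANC1 had far more, 184, 184 and 183 FPKM in the controls and 144, 155 and 148 FPKM after knockdown. MIA PaCa-2 knockdowns were thus well above their controls and still well below every PANC1 library. All PANC1 knockdowns lay below all PANC1 controls, with a log2 change of -0.30 that did not pass (limma adjusted p = 0.374). The SE of that PANC1 change, 0.266, pools both lines, so the spread of the low MIA PaCa-2 controls enters it. The difference was -4.93 (SE 0.376, limma adjusted p = 5.63e-06). Between 13 and 798 reads were counted on it per MIA PaCa-2 library, so the size of the fold depends on low control values. Across the alternatives the difference lay between -5.39 and -3.47, and it was -5.33 without control replicate 2.

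IL32, an inflammatory cytokine, was close to absent in the MIA PaCa-2 controls, at 0.0396, 0.0195 and 0.119 FPKM, and reached 2.46, 1.76 and 1.62 FPKM after knockdown. With as few as 1 read in a control library, its log2 change of 3.71 is set in part by the 0.1 added before taking logs. The difference of -3.35 lay between -4.70 and -1.14 across the alternatives, and IL32 fell below the filter in 4 of 22 of them. PANC1 had 6.5, 8.62 and 6.4 FPKM and then 9.08, 9.23 and 9.16 FPKM, a change of 0.36 that did not pass. The SE of that change was again pooled over both lines. TSC22D3, the glucocorticoid-induced leucine zipper, went from 0.771, 0.846 and 0.617 to 9.56, 10.05 and 10.2 FPKM in MIA PaCa-2. It was higher in PANC1, where it went from 16.6, 17.8 and 16.4 to 22.7, 23.8 and 24.2 FPKM, a smaller rise that also passed the test (0.48 in log2, limma adjusted p = 0.00175). Its difference was -3.10 (SE 0.137, limma adjusted p = 9.78e-08).

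MUC1, a cell-surface mucin, rose from 1.3, 1.45 and 1.16 to 6.13, 6.42 and 5.88 FPKM in MIA PaCa-2, and PANC1 had 9.14, 9.85 and 8.69 FPKM in the controls and 6.56, 6.59 and 7.29 FPKM after knockdown. The PANC1 fall, a log2 change of -0.43, was just short of the size for an opposite change. TRAF1, an adaptor of tumor necrosis factor receptors, rose from 1.04, 1.36 and 0.828 to 6.61, 6.65 and 6.78 FPKM in MIA PaCa-2. In PANC1 it was at 2.72, 2.38 and 2.8 FPKM in the controls and 2.61, 2.81 and 2.3 FPKM after knockdown, with overlap. Differences were -2.59 (SE 0.132, limma adjusted p = 3.16e-07) for MUC1 and -2.58 (SE 0.208, limma adjusted p = 7.91e-06) for TRAF1.

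Among the falls in MIA PaCa-2 only was that of HSPA1A. This heat-shock chaperone was at 21.2, 38.6 and 19.6 FPKM in the MIA PaCa-2 controls and 4.96, 6.42 and 5.12 FPKM after knockdown, and at 30.4, 29.2 and 29.8 FPKM and 23.4, 23 and 23.2 FPKM in PANC1. Control replicate 2 was the highest library, and without it the MIA PaCa-2 change was -1.88 instead of -2.19 in log2. HSPA1A has a near-identical copy, HSPA1B, between which reads can be split, so its level is uncertain. MPHOSPH6, a cofactor of the nuclear RNA exosome, fell from 26.6, 18.2 and 26.3 to 5.39, 5.3 and 5.14 FPKM in MIA PaCa-2 and from 14.3, 14.3 and 14.7 to 11, 9.89 and 9.94 FPKM in PANC1, a difference of 1.63 (SE 0.174, limma adjusted p = 5.16e-05). ADRA2C, an adrenergic receptor, FAM222A, and CRIP2, a LIM-domain protein, had MIA PaCa-2 log2 changes of -1.48, -2.08 and -1.55, which were -1.22, -1.88 and -1.27 without control replicate 2.

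**Figure D3:**
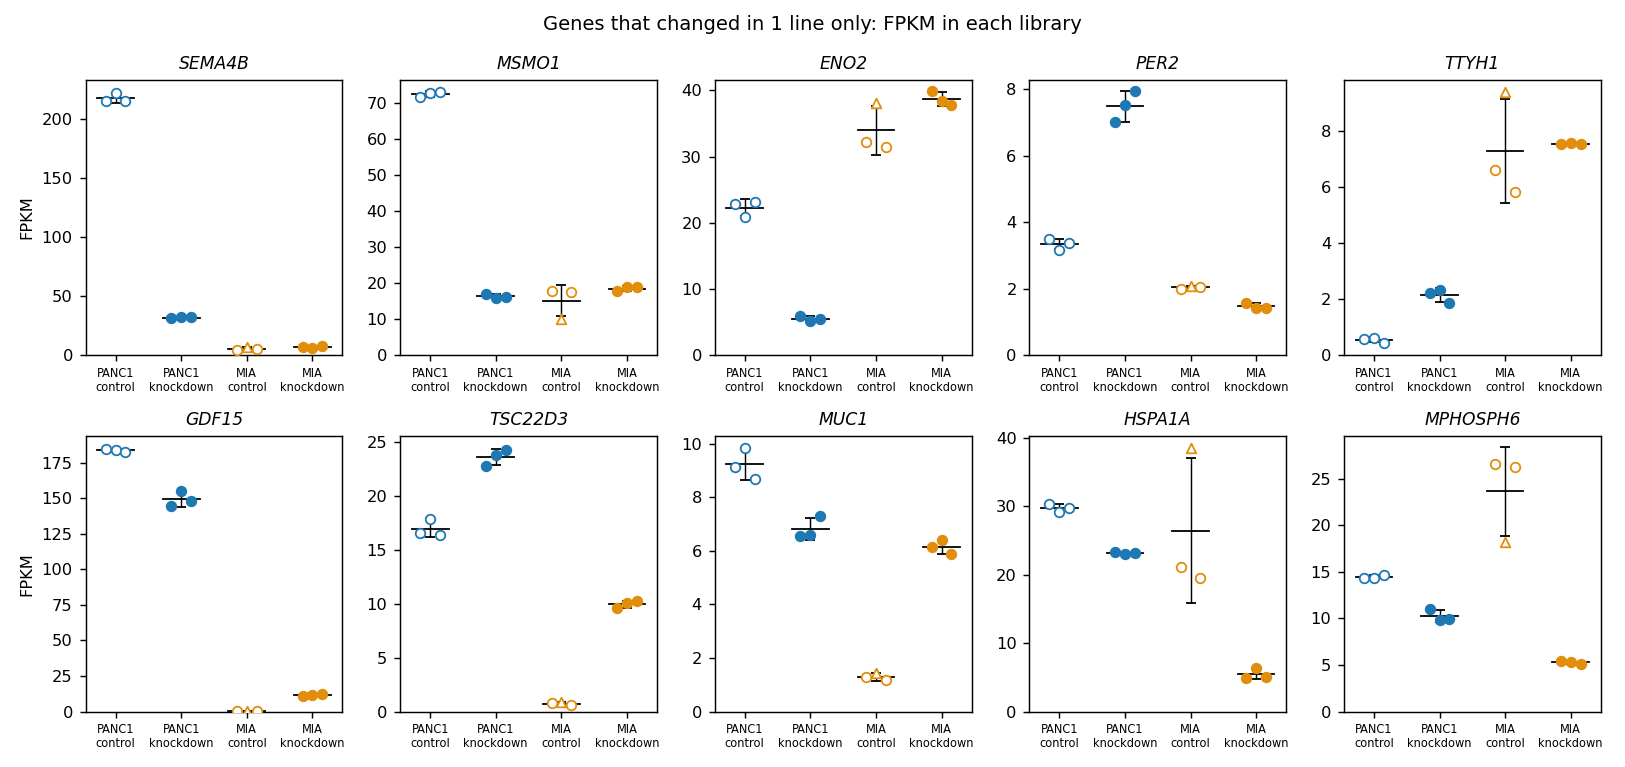
FPKM (vertical axes, from 0) of 10 genes that changed in 1 line only, in the 3 libraries of each group (horizontal axis), with symbols and bars as in the plot of opposite genes. SEMA4B, MSMO1, ENO2, PER2 and TTYH1 move in PANC1, and GDF15, TSC22D3, MUC1, HSPA1A and MPHOSPH6 in MIA PaCa-2. The triangle is the highest MIA PaCa-2 control for HSPA1A and the lowest for MPHOSPH6.

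Gene groups were described next. For all genes tested, 3.7% were called more negative in PANC1, 12.7% were lower in PANC1 and higher in MIA PaCa-2 in sign, and 43.8% had a difference below 0. In single lines, 25.8% of genes rose and 22.7% fell in PANC1, and 24.7% rose and 31.1% fell in MIA PaCa-2, at a limma adjusted p below 0.05. The difference passed with the adjusted p alone in 20.9% of genes toward PANC1 and in 14.5% toward MIA PaCa-2. List counts below are read beside these shares.

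Hypoxia and glycolysis genes had a median difference of -1.05. Lists of nutrient-sensing, acute-phase and NF-kB, and RAS-MAPK genes, described below, were alike, at -1.05, -1.04 and -1.01. When oxygen is low, HIF transcription factors bind hypoxia response elements with the core ACGTG and raise glycolytic enzymes, glucose transport and angiogenic factors. Of 25 tested, 14 were called, each more negative in PANC1, and 25 of 25 had a difference below 0. In PANC1 15 fell and 4 rose, and in MIA PaCa-2 20 rose and 0 fell. The median log2 change was -0.43 in PANC1 and 0.82 in MIA PaCa-2. By library, the median of the list relative to its control mean lay between -0.43 and -0.42 in the PANC1 knockdowns and between 0.79 and 0.86 in the MIA PaCa-2 knockdowns, with control replicate 2 of MIA PaCa-2 at 0.17. Without that library 14 were again called.

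Among the enzymes, PGK1, which makes the first ATP of glycolysis, had 166, 169 and 170.1 FPKM in the PANC1 controls and 128, 125 and 126 FPKM after knockdown. It rose from 161, 178 and 160.1 to 311, 309 and 307 FPKM in MIA PaCa-2. The lines started at like levels and moved apart, with log2 changes of -0.41 and 0.90 and a difference of -1.31 (SE 0.0622, limma adjusted p = 2.02e-07). ALDOA, the main aldolase of most tissues, changed by -0.64 and 0.82. Only 254 to 513 reads were counted on it per PANC1 library and 208 to 426 per MIA PaCa-2 library. PGK1 had at least 19656 in any library, so the level of ALDOA is uncertain and its change may not stand for the whole gene. PDK1, a kinase that keeps pyruvate out of mitochondria, changed by -0.95 in PANC1 and 1.57 in MIA PaCa-2, from 1.54, 0.917 and 1.5 to 3.89, 4.14 and 3.99 FPKM in the latter. The core enzymes GAPDH, ENO1, PKM and TPI1 fell in PANC1 by 0.38 to 0.60 in log2 and had differences between -0.80 and -0.47, short of the size called.

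Not every hypoxia target split the lines in direction. HK2, the hexokinase that starts glycolysis, rose in both, by 0.99 and 1.18, and its difference of -0.19 did not pass (limma adjusted p = 0.134). VEGFA, the vascular growth factor, rose by 0.35 in PANC1 and 1.27 in MIA PaCa-2. ADM, the vasodilator adrenomedullin, rose from 46.2, 47.2 and 48.3 to 79, 83 and 81.8 FPKM in PANC1 and from 1.92, 3.59 and 3.43 to 17.6, 17.9 and 17.9 FPKM in MIA PaCa-2. Both lines rose for ADM and NDRG1, a growth-arrest gene, by more in MIA PaCa-2, with differences of -1.81 and -1.05. BNIP3L, a mitophagy receptor, ANKRD37, PFKFB4, a regulator of glycolytic flux, and MXI1, a MYC antagonist, rose in MIA PaCa-2 only, by 1.63, 2.24, 1.58 and 1.80 in log2. MXI1 also rose in PANC1 by less than the size bound, from 7.67, 7.29 and 7.65 to 9.4, 9.55 and 9.47 FPKM.

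Promoter sequence was read for these genes from RefSeq's GRCh38.p14 table, in a window of 250 bases before and 50 after the start site. Of the 14 genes called, 12 had an entry, and 7 of the 12 held ACGTG on either strand, against 10 of the 22 tested list members with an entry, beside 28.1% of the tested genes with an entry and 21.6% of all 27305 promoters. Where the match is CACGTG, it is also an E-box. A match is a description of letters, and no binding was measured. Stretches of 30 bases are shown for 4 genes whose values are given above, 5′ to 3′ on the gene's strand, with the match in capitals (CACGT is ACGTG read on the other strand).
ALDOC, chr17:28576906-28576935, minus strand: ccccggaggagtCACGTagctctgcgacat
ANGPTL4, chr19:8363909-8363938, plus strand: ggaaagaagagtCACGTctcccacggttcg
ENO2, chr12:6914450-6914479, plus strand: acccgcgctcgtACGTGcgcctccgccggc
PGK1, chrX:78104034-78104063, plus strand: gcggcgtgccggACGTGacaaacggaagcc
ALDOC and ANGPTL4 moved in opposite directions, ENO2 fell in PANC1 only, and PGK1 fell in PANC1 and rose in MIA PaCa-2.

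Cholesterol and fatty acid synthesis followed the same order of lines. SREBP factors, held back by INSIG1 when sterols are plentiful, drive these genes together. Of 30 tested, 14 were called, each more negative in PANC1, and 29 had a difference below 0. In PANC1 16 fell and 0 rose, and in MIA PaCa-2 23 rose and 1 fell, with median log2 changes of -0.26 and 0.66. Without control replicate 2, 10 were called.

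FDFT1, squalene synthase, went from 30.3, 30.7 and 30.5 to 19.8, 19 and 18.7 FPKM in PANC1 and from 44.3, 41.4 and 43.6 to 69.3, 67.3 and 68.1 FPKM in MIA PaCa-2. No library crossed between groups, and the difference was -1.33 (SE 0.0694, limma adjusted p = 3.64e-07).

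SCD, which puts the double bond into fatty acids, fell from 1112, 1145 and 1157 to 592, 592 and 597 FPKM in PANC1. It rose from 320.1, 272 and 326 to 425, 434 and 435 FPKM in MIA PaCa-2, and the difference was -1.44 (SE 0.0818, limma adjusted p = 6.07e-07). HMGCS1, which makes HMG-CoA, and INSIG1 also moved in opposite directions, by -0.86 and -0.70 in PANC1 and 1.40 and 1.42 in MIA PaCa-2. The sterol element CACCCCAC was in 0 of the 10 promoters read for the genes called and in 1 of the 23 for the genes tested, beside 2.72% of all promoters.

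RAS-MAPK output is followed by genes that ERK signaling induces within minutes and by the phosphatases and Sprouty proteins that switch it off. Of 20 tested, 10 were called, each more negative in PANC1, and 20 of 20 differences were below 0. In PANC1 12 fell and 2 rose, and in MIA PaCa-2 15 rose and 1 fell, with medians of -0.28 and 0.60. Without control replicate 2, 9 were called.

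SPRY4, a Sprouty inhibitor of receptor signaling, had 9.8, 9.69 and 9.68 FPKM in the PANC1 controls and 6.21, 6.14 and 6.42 FPKM after knockdown. It rose from 19.7, 20.3 and 19.99 to 33.8, 33.8 and 33.9 FPKM in MIA PaCa-2. Replicates nearly coincided in each group, and the difference was -1.39 (SE 0.0745, limma adjusted p = 4.39e-07). EGR1, an immediate early transcription factor, was at 1.33, 1.6 and 1.57 FPKM and then 1.34, 1.39 and 1.29 FPKM in PANC1, and rose from 9.41, 11 and 10.4 to 29.6, 29.9 and 30.6 FPKM in MIA PaCa-2. Groups overlapped in PANC1 and not in MIA PaCa-2, with a difference of -1.69 (SE 0.125, limma adjusted p = 4.67e-06).

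FOSL1, an AP-1 subunit, showed the other pattern. It fell from 36, 40.4 and 38.5 to 10.5, 12.1 and 9.86 FPKM in PANC1, and in MIA PaCa-2 went from 63.5, 74.7 and 64.8 to 56.6, 56.1 and 54.9 FPKM, a difference of -1.54 (SE 0.121, limma adjusted p = 6.75e-06). ETV4, an ERK-induced ETS factor, also fell in PANC1 only, with a log2 change of -1.05. DUSP6, the phosphatase that inactivates ERK, changed by -0.55 and 1.12. DUSP5, a nuclear ERK phosphatase, rose in both lines, by 1.32 and 1.71, with a difference of -0.39 that was under the size called.

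NF-kB factors induce chemokines and their own inhibitors in inflamed cells. Of 14 acute-phase and NF-kB genes tested, 8 were called, each more negative in PANC1, and 8 again without control replicate 2. In PANC1 6 fell and 1 rose, and in MIA PaCa-2 11 rose and 2 fell. Another 19 of the 33 genes listed were under 1 FPKM in one line or both and were not tested. CXCL8, a chemokine that draws neutrophils, rose from 9.35, 5.64 and 9.04 to 47.5, 49.5 and 45.7 FPKM in MIA PaCa-2 and was at 6.53, 5.78 and 5.83 FPKM and 7.99, 6.17 and 6.82 FPKM in PANC1. Groups overlapped in PANC1 and were far apart in MIA PaCa-2, and the difference was -2.39 (SE 0.234, limma adjusted p = 3.02e-05).

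CXCL2, a related chemokine, rose from 0.985, 0.811 and 0.918 to 3.14, 4.32 and 3.67 FPKM in MIA PaCa-2, while PANC1 had 8.72, 7.62 and 7.87 FPKM in the controls and 6.82, 6.56 and 6.12 FPKM after knockdown. Here the MIA PaCa-2 knockdowns remained below all PANC1 libraries, and the difference was -2.22 (SE 0.168, limma adjusted p = 5.18e-06). BIRC3, an inhibitor of cell death that NF-kB induces, rose in MIA PaCa-2 only, from 6.25, 3.34 and 5.8 to 19.8, 20.3 and 20.2 FPKM, and NFKB2, a subunit of NF-kB itself, by 1.32 in log2. TNIP1, which restrains NF-kB, fell in PANC1 only (log2 change -1.19). NFKB1, the p50 subunit, had a difference of 0.09 (limma adjusted p = 0.467).

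A kappaB-like element, GGANTTTCC on either strand, was in 4 of the 7 promoters read for the acute-phase and NF-kB genes called. It was in 6 of the 11 for those tested, called or not, and in 1.64% of all promoters (1.57% of those of all tested genes). The 4 called genes with a match are shown in the same way, since 3 of them, CXCL2, CXCL8 and IL32, rose in MIA PaCa-2 only.
CXCL1, chr4:73869305-73869334, plus strand: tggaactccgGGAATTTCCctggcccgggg
CXCL2, chr4:74099253-74099282, minus strand: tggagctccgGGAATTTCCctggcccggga
CXCL8, chr4:73740468-73740497, plus strand: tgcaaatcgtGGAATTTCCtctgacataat
IL32, chr16:3065295-3065324, plus strand: ctgtactcagGGAGTTTCCccagccagctg
CXCL1 and CXCL2 are close paralogs and are alike around the match, so they do not count as separate cases, and reads can be split between them. CXCL1 fell by 0.55 in PANC1 and rose by 0.48 in MIA PaCa-2, and its difference of -1.03 became -0.92 without control replicate 2.

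Integrated stress response genes, which the factor ATF4 induces when translation initiation is slowed, rose in both lines and more in MIA PaCa-2. In PANC1 18 of 32 rose and 3 fell, and in MIA PaCa-2 26 rose and 2 fell, with medians of 0.33 and 0.84. Of the 32, 8 were called, each more negative in PANC1, and 10 without control replicate 2. ATF4 itself rose by 0.46 and 0.82, and ATF3, a factor induced downstream, by 1.37 and 2.38, a difference of -1.01 that was under the size called in 7 of the alternatives. NUPR1, a stress-induced chromatin protein, went from 29.1, 29.6 and 28.1 to 47.8, 47.2 and 46.3 FPKM in PANC1 and from 0.215, 0.381 and 0.22 to 2.65, 2.56 and 2.85 FPKM in MIA PaCa-2. Both lines rose without overlap, from controls that were low in MIA PaCa-2, and the difference was -2.23 (SE 0.193, limma adjusted p = 1.31e-05).

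ASNS, asparagine synthetase, rose by 1.96 in MIA PaCa-2 against 0.44 in PANC1. SLC7A11, the cystine importer that guards against ferroptosis, went the opposite way from most of the list in PANC1, falling from 7.84, 7.57 and 7.68 to 2.5, 2.21 and 2.27 FPKM. In MIA PaCa-2 it had 1.1, 0.542 and 1.09 FPKM in the controls and 1.46, 1.38 and 1.38 FPKM after knockdown, and its place among the opposite genes rested on control replicate 2, without which it changed in PANC1 only. SLC7A11 was also the only NRF2 antioxidant gene called, of 17 tested.

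Nutrient-sensing and FOXO targets gave 5 called of 10 tested (6 without control replicate 2), each more negative in PANC1, with TSC22D3 and PIK3IP1 described above. TXNIP, a brake on glucose uptake, rose from 11.9, 14.2 and 14.3 to 18.8, 20.7 and 20.2 FPKM in PANC1 and from 37, 31.1 and 35.9 to 114, 114 and 113 FPKM in MIA PaCa-2. The rise was clear of the controls in both lines and larger in MIA PaCa-2, with a difference of -1.15 (SE 0.12, limma adjusted p = 4.44e-05). SESN1, a sestrin, was on the other side, rising by 1.25 in PANC1 and 0.68 in MIA PaCa-2.

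Genes of growth arrest and cell death were among those called. CDKN1A, the cell-cycle inhibitor p21, rose from 1.18, 1.78 and 1.02 to 10.7, 11.2 and 10.1 FPKM in MIA PaCa-2 and from 19.7, 18.4 and 18.9 to 30.9, 30.1 and 28.4 FPKM in PANC1. Both rose, MIA PaCa-2 by more, with a difference of -2.30 (SE 0.21, limma adjusted p = 1.87e-05). TP53INP1, an autophagy and stress gene, rose in MIA PaCa-2 only by the size rule, from 0.401, 0.268 and 0.34 to 1.86, 1.9 and 1.92 FPKM. In PANC1 it also rose, by less than the bound, from 4.7, 4.93 and 5.25 to 7.08, 6.64 and 7.2 FPKM. BBC3, the death inducer PUMA, had 0.624, 2.16 and 1.03 FPKM in the MIA PaCa-2 controls, where replicate 2 was highest, and 6.49, 5.98 and 6.82 FPKM after knockdown, against 2.28, 2.57 and 1.97 and 2.4, 2.67 and 2.29 FPKM in PANC1. TNFRSF10B, a TRAIL death receptor, moved in opposite directions, by -0.60 and 0.52. Of 18 apoptosis regulators, 3 were called, and they were TNFRSF10B, BBC3 and BIRC3.

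Matrix and integrin genes mostly fell in PANC1. Of 27 collagens, laminins and matrix enzymes listed, 10 were tested. COL3A1 was listed with the fibroblast markers instead and rose in both lines, by 0.80 and 2.23 in log2. The 10 tested all fell in PANC1, and in MIA PaCa-2 3 fell and 2 rose, with medians of -0.77 and 0.05. Without control replicate 2, 3 fell and 6 rose in MIA PaCa-2, so the balance there turned with 1 library. Of the 10, 4 were called more negative in PANC1, and 6 without control replicate 2. PLOD1, which hydroxylates collagen lysines, dropped from 182, 189.7 and 183 to 51.7, 51.5 and 49.5 FPKM in PANC1. In MIA PaCa-2 it had 82.9, 104 and 84.9 FPKM in the controls and 89, 89 and 90.8 FPKM after knockdown, with overlap, and the difference was -1.85 (SE 0.105, limma adjusted p = 5.96e-07). COL6A2, a collagen VI chain, fell in PANC1 only (log2 change -1.01). LAMB1, a laminin chain, fell in PANC1 (log2 change -0.37) and rose in MIA PaCa-2 (log2 change 0.89).

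ITGA3, an integrin that binds laminin, fell in both lines, from 146, 147 and 147 to 33.4, 33.3 and 34.3 FPKM in PANC1 and from 36.7, 51.7 and 35.9 to 22.1, 23.7 and 22.2 FPKM in MIA PaCa-2, a difference of -1.27 (SE 0.156, limma adjusted p = 0.000127). Of 6 integrins tested 5 fell in PANC1 and 2 differences were called, and the call of ITGAV was lost without control replicate 2, at -0.67. AXL, a receptor tyrosine kinase linked to mesenchymal tumor cells, fell in PANC1, with log2 changes of -1.23 there and 0.35 in MIA PaCa-2. CCN1, a matricellular YAP target, rose in MIA PaCa-2, with log2 changes of 1.38 there and -0.32 in PANC1. AMOTL2, which holds YAP at junctions, was the 1 gene of the YAP and TGF-beta list called more positive in PANC1, at 1.28, beside 3 called more negative among 10 tested, of which 6 had a difference below 0.

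VIM, the mesenchymal intermediate filament vimentin, fell from 1402, 1409 and 1393 to 784, 807 and 789 FPKM in PANC1 and rose from 3476, 3586 and 3475 to 4954, 4778 and 4968 FPKM in MIA PaCa-2. No library overlapped, and the difference was -1.30 (SE 0.0383, limma adjusted p = 4.3e-09). KRT19, a duct keratin, moved the same way as VIM, from 174, 184 and 177 to 85.7, 91.5 and 90.3 FPKM in PANC1 and from 102, 141 and 105 to 147, 137 and 141 FPKM in MIA PaCa-2, where control replicate 2 lay among the knockdowns. CD44, an adhesion receptor, fell in PANC1 only (log2 change -1.39). Epithelial genes CLDN4 and OCLN, of tight junctions, changed by -0.82 and -0.77 in PANC1 and 1.5 and 0.67 in MIA PaCa-2, the same signs as VIM. Of its 11 genes, 5 were called more negative in PANC1 and 1 more positive, KRT8, whose call was lost without control replicate 2.

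Markers of other cell types were mostly too low to test in both lines, and the 2 that were tested, CD68 and COL3A1, were both called. CD68, a lysosomal protein of macrophages and other cells, fell from 31.9, 34.2 and 37.7 to 17, 17.7 and 19.5 FPKM in PANC1, with 46.9, 65 and 45.6 FPKM in the MIA PaCa-2 controls and 69.5, 67.3 and 71.1 FPKM after knockdown. It made up most of the sum of 10 leukocyte markers, which went from between 33.7 and 38.9 FPKM to between 17.5 and 20.7 FPKM in PANC1 and from between 49.5 and 67.5 FPKM to between 73.4 and 77.3 FPKM in MIA PaCa-2. Other leukocyte markers were not tested but had moved means, PTPRC from 3.51 to 6.002 FPKM in MIA PaCa-2 and CD14 from 1.28 to 0.594 FPKM in PANC1, while CD3E and MS4A1, which define T and B cells, were listed at 0 in the mean of every group. COL3A1, a fibrillar collagen, rose in both lines, by 0.80 and 2.23. The sum of 7 fibroblast markers went from between 35.3 and 37.3 FPKM to between 40.3 and 40.7 FPKM in PANC1 and from between 158 and 188 FPKM to between 234 and 236 FPKM in MIA PaCa-2. Its largest parts were COL1A1 in PANC1, with means of 26.1 and 22.3 FPKM, and COL1A2 in MIA PaCa-2, with means of 162 and 205 FPKM, while the proteoglycan DCN was at or near 0 in every group. In bulk RNA, fewer cells of a kind and less RNA per cell cannot be told apart, and the part of any such cells in the results above was not tested.

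**Figure D4:**
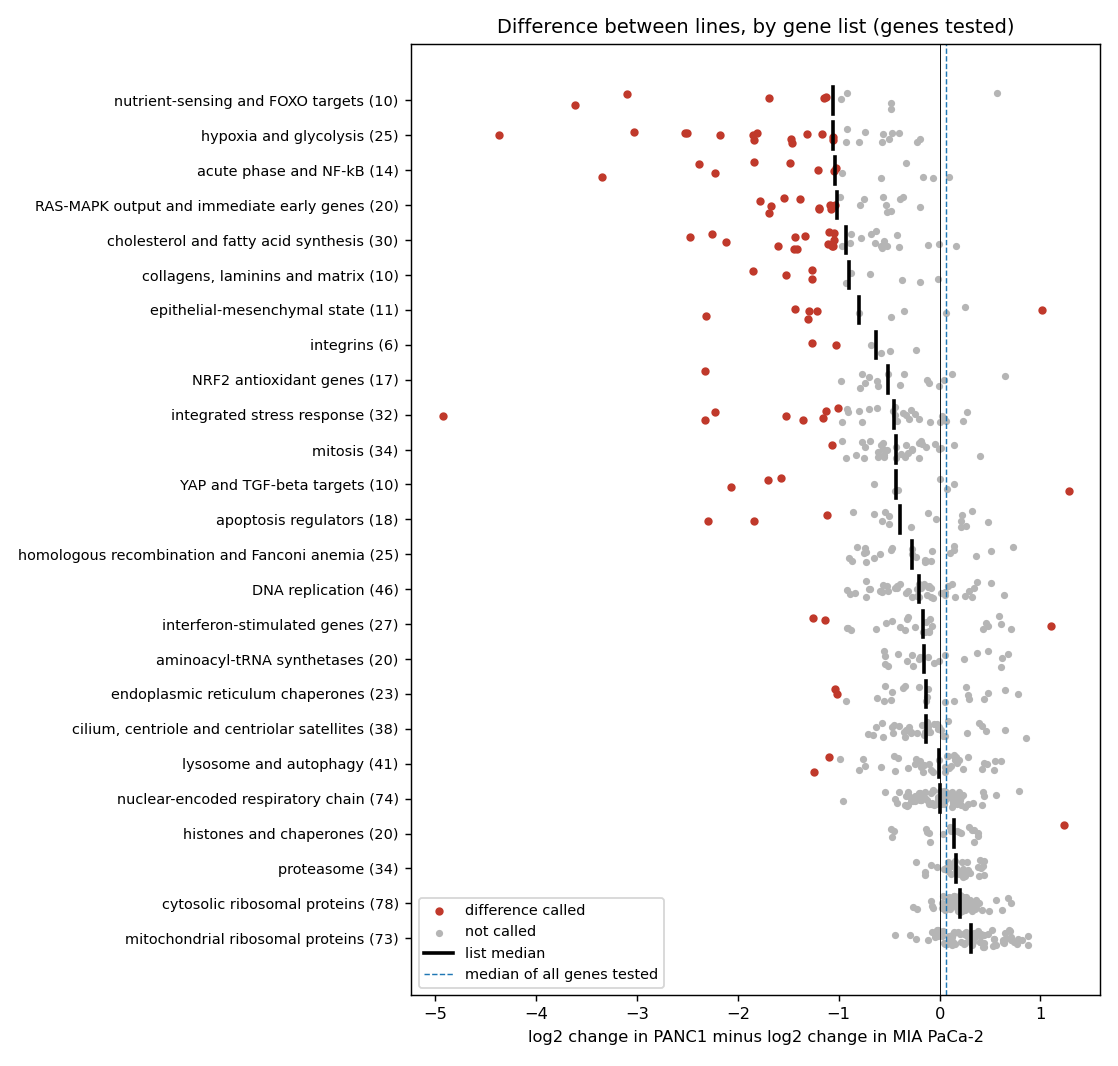
Difference in log2 change, PANC1 minus MIA PaCa-2 (horizontal axis), for each tested gene of 25 lists (rows, with the number of genes tested). Red points are differences called, gray points not called, black bars list medians, and the dashed blue line the median of all genes at 0.07. Nutrient, hypoxia, NF-kB, RAS-MAPK and cholesterol lists lie to the left, and mitochondrial ribosomal proteins are centered at 0.31.

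Lists of basic cell machinery held no difference of the size called. Cytosolic ribosomal proteins rose in 75 of 78 genes in PANC1 and 68 of 78 in MIA PaCa-2, with medians of 0.60 and 0.42. The difference passed by limma adjusted p alone in 28, more positive in PANC1, and in 1 the other way. Mitochondrial ribosomal proteins had medians of 0.11 and -0.28. In PANC1 22 rose and 8 fell, and in MIA PaCa-2 5 rose and 42 fell, or 12 and 48 without control replicate 2. The difference passed by limma adjusted p alone in 32 of 73, more positive in PANC1, and in 1 the other way. Proteasome subunits fell in 20 of 34 genes in PANC1 and 27 of 34 in MIA PaCa-2, and 7 differences passed by limma adjusted p alone more positive in PANC1, against 1. The same counts were 6 and 12 of 74 nuclear-encoded respiratory chain genes, 4 and 3 of 38 genes of cilia, centrioles and satellites, and 6 and 8 of 20 aminoacyl-tRNA synthetases. At an unadjusted p below 0.05 in limma, 4296 of the 9553 genes passed, and 38, 42, 13, 23, 13 and 14 in these 6 lists in the order given. Without control replicate 2, 1 respiratory chain gene was called and 0 in the other 5 lists, and more genes passed by limma adjusted p alone. The counts more positive and more negative in PANC1 were then 57 and 6 for cytosolic ribosomal proteins, 49 and 3 for mitochondrial ones and 20 and 5 for the proteasome. They were 13 and 29 for the respiratory chain, 7 and 11 for cilia, centrioles and satellites, and 9 and 9 for aminoacyl-tRNA synthetases.

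Mitosis genes fell in 33 of 34 in PANC1 and 28 of 34 in MIA PaCa-2. Their medians were -1.17 and -0.71, and 31 differences were below 0. ASPM, a spindle pole protein, was the 1 gene called, at -1.07, and its difference was -0.71 without control replicate 2, in which it was at 10.3 FPKM against 22.04 and 21.7 FPKM in the other MIA PaCa-2 controls. H2AX, the histone variant that marks DNA breaks when phosphorylated, was the 1 of 20 histone and chaperone genes called. It fell from 33.4, 29.4 and 27.9 to 10.6, 9.44 and 10.3 FPKM in PANC1 and from 85.3, 136 and 89.9 to 13.4, 15.4 and 14.6 FPKM in MIA PaCa-2, a difference of 1.23 (SE 0.211, limma adjusted p = 0.00107). H2AX thus fell further in MIA PaCa-2, whose control replicate 2 was highest, and the difference without it was 1.02.

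Smaller lists gave scattered calls. Interferon-stimulated genes had 3 called of 27, and 4 without control replicate 2, all more negative in PANC1. OASL, an antiviral protein, was more positive in PANC1, at 1.11, and lost its call without control replicate 2, at 0.996. PSMB8 and PSMB9, subunits of the immunoproteasome, were more negative, at -1.25 and -1.13. Of 23 endoplasmic reticulum chaperones and related genes, EDEM1, which clears misfolded glycoproteins, fell in PANC1 only (log2 change -1.19). DNAJB9, a BiP cochaperone, rose in MIA PaCa-2 only by the size rule (log2 change 1.44). It went from 9.6, 8.41 and 8.89 to 11.9, 11.1 and 13.3 FPKM in PANC1. Neither EDEM1 nor DNAJB9 was called without control replicate 2. NPC1, which exports cholesterol from lysosomes, and WIPI1, an autophagosome protein, were the 2 called of 41 lysosome and autophagy genes, at -1.10 and -1.25. Of 11 Hedgehog genes, 1 was high enough in both lines to test.

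The comparison was repeated without MIA PaCa-2 control replicate 2. Of the 494 genes, 386 were called again, 105 were not and 3 were no longer tested, while 109 others were added. No gene called changed sign. The genes lost were 54 more positive and 51 more negative in PANC1, and the new totals were 121 and 380. By class, 90 of 97 opposite genes, 80 of 88 in PANC1 only and 101 of 126 in MIA PaCa-2 only were called again, and 84, 74 and 92 kept their class.

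**Figure D5:**
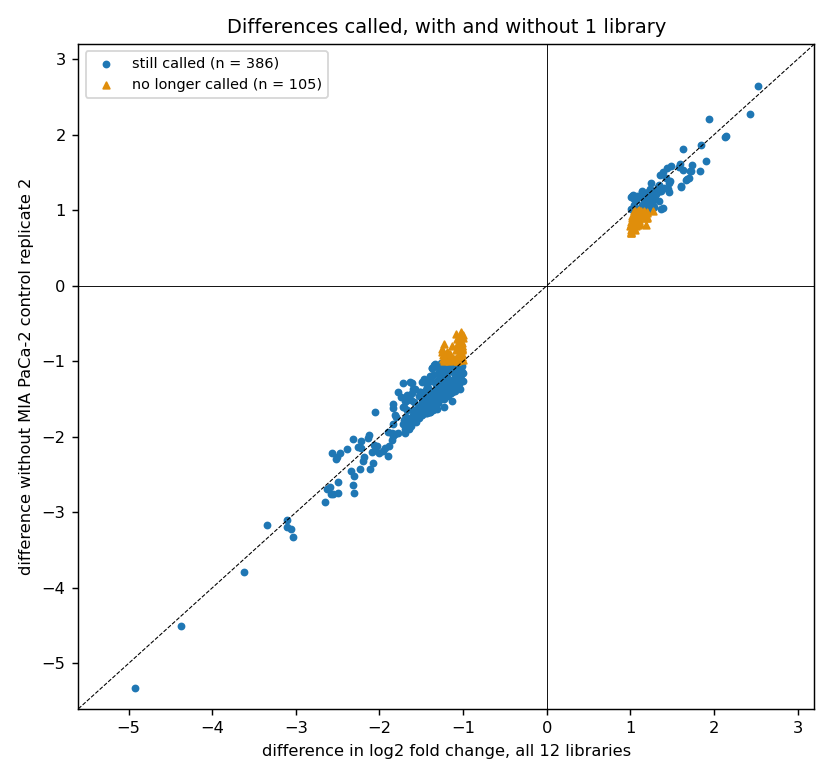
Difference in log2 change, PANC1 minus MIA PaCa-2, for genes called with all 12 libraries (horizontal axis) against the value without MIA PaCa-2 control replicate 2 (vertical axis). Blue circles are the 386 genes called again, orange triangles the 105 no longer called, and the dashed line equal values. The triangles sit near the size called, and none crosses 0.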

How the data were processed

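RNA-seq of 12 libraries was used (3 controls and 3 OFD1 knockdowns each of PANC1 and MIA PaCa-2), grouped by the sample titles. Per the methods, the authors mapped reads with HISAT2, counted them with HTSeq-count and calculated FPKM. The submitters' notes name a human and 2 mouse genome builds without roles, and the kits in labels and methods differ. The deposited FPKM values were whole multiples of what 1 read is worth for all 16308 (PANC1) and 20604 (MIA PaCa-2) genes above 0. The tolerance was 1e-06 relative to each value, and the multiples gave the reads per library. Gene lengths so implied differed between lines for many genes, with 5348 of 9553 tested genes having the same length, so changes were taken within a line. Apart from cell type markers, a few MIA PaCa-2 and PANC1 levels are set side by side only for genes of the same length. Markers too low to test in a line, such as EPCAM, CDH1 and PTPRC, were not checked for length.

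The log2 of FPKM plus 0.1 was fitted with limma 3.58.1 (lmFit, eBayes with trend) in R 4.3.3 (package data.table, version 1.17.8), and p-values were adjusted by Benjamini-Hochberg over 9553 genes. FPKM rather than counts was the unit, so limma replaced the authors' DESeq2, with their threshold (adjusted p below 0.05, 2-fold). Standard errors are limma's, pooled over the 12 libraries. Fold changes on this scale understate those of low genes. The smallest p of an exact permutation test of 3 libraries against 3, two-sided, is 0.1. On simulated data, all of 102 planted differences of 1.5 and 95 of 2 in log2 were found among 9530 genes, with 0 false calls. Simulated libraries of a line had equal spread, with none apart like MIA PaCa-2 control replicate 2. Both planted sizes were above the size called. The simulation therefore checked the code and does not give the rate of missed or false calls in the real data.

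The members, gene lists, motifs and classes were chosen with earlier results of these data known. Genes named were OFD1, BRCA1, the 5 largest differences per class and direction with libraries that did not overlap and a class kept without control replicate 2, and up to 3 called genes per list by p. Other list members were named after their values were seen. A few named genes and 1 list are not reported here. Alternatives were another pseudocount, filter, scaling, fit, replicate block and leaving out each library. The PATU8988T libraries entered only 1 alternative, and genes below 1 FPKM in a line were left out: 1349 reached it only in PANC1 and 1205 only in MIA PaCa-2.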

Additional observations from a re-analysis of the deposited data

Results flagged for a closer look

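Each gene named in the report whose interaction term passed (limma adjusted p below 0.05 and at least 1 in log2) is given here once more. The value is its difference in log2 change, PANC1 minus MIA PaCa-2, because the change after knockdown differed between lines by a test of the difference itself. Among genes that moved in opposite directions, PRR19 (2.43), PTGES (2.14), ID3 (2.13), ID2 (1.94) and ODC1 (1.84) were more positive in PANC1. Of the same kind, ALDOC (-4.37), PIK3IP1 (-3.62), PLAU (-3.10), ANGPTL4 (-3.03), EFEMP2 (-2.65), SLC7A11 (-2.32), SPRY4 (-1.39) and FDFT1 (-1.33) were more negative in PANC1. PDK1 (-2.52), CLDN4 (-2.32), HMGCS1 (-2.26), INSIG1 (-2.12), DUSP6 (-1.67), ALDOA (-1.46), OCLN (-1.43) and TNFRSF10B (-1.12) followed. For genes that changed in PANC1 only, TTYH1 (1.71), AVPI1 (1.69), PER2 (1.58), NTS (1.43) and OSR1 (1.40) were more positive in PANC1. Of the same kind, SEMA4B (-3.05), MSMO1 (-2.48), TUBB4A (-2.19), ENO2 (-2.18), RHBDL2 (-2.06), PLOD1 (-1.85), AXL (-1.57) and FOSL1 (-1.54) were more negative in PANC1. COL6A2 (-1.27), CD44 (-1.22), ETV4 (-1.08), TNIP1 (-1.05), ASPM (-1.07) and EDEM1 (-1.04) followed. In genes that changed in MIA PaCa-2 only, ADRA2C (1.91), HSPA1A (1.83), FAM222A (1.72), MPHOSPH6 (1.63) and CRIP2 (1.60) were more positive in PANC1. Of the same kind, GDF15 (-4.93), IL32 (-3.35), TSC22D3 (-3.10), MUC1 (-2.59), TRAF1 (-2.58), CXCL8 (-2.39), BBC3 (-2.30), CXCL2 (-2.22) and BIRC3 (-1.84) were more negative in PANC1. ANKRD37 (-2.50), PFKFB4 (-1.86), BNIP3L (-1.84), ASNS (-1.52), NFKB2 (-1.48), MXI1 (-1.47), TP53INP1 (-1.72), CCN1 (-1.70), EGR1 (-1.69), WIPI1 (-1.25) and DNAJB9 (-1.02) followed. Where both lines moved the same way by unequal amounts, H2AX (1.23) was more positive in PANC1. Of the same kind, CDKN1A (-2.30), NUPR1 (-2.23), ADM (-1.81), COL3A1 (-1.43), ITGA3 (-1.27), TXNIP (-1.15), NDRG1 (-1.05) and ATF3 (-1.01) were more negative in PANC1. With none of these definitions met, AMOTL2 (1.28), OASL (1.11) and KRT8 (1.01) were more positive in PANC1. Of the same kind, SCD (-1.44), CD68 (-1.35), PGK1 (-1.31), VIM (-1.30), KRT19 (-1.30), LAMB1 (-1.26), PSMB8 (-1.25), PSMB9 (-1.13) and NPC1 (-1.10) were more negative in PANC1. ITGAV (-1.03) and CXCL1 (-1.03) followed. No group held 4 or more libraries, so single libraries were not tested as outliers.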

How the results depend on the processing

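Counts of genes more positive in PANC1, more negative, PANC1 only, MIA PaCa-2 only and opposite were 141, 353, 88, 126 and 97. With a pseudocount of 1 the first 4 became 86, 219, 48 and 68. With no filter on low values, over 14546 genes, they were 318, 699, 253, 248 and 171, and with at least 5 FPKM in each line, over 6343 genes, 70, 165, 37, 58 and 49. By adjusted p alone, 2001 and 1385 genes passed and 225 changed in MIA PaCa-2 only. The pseudocount changes how low genes are weighed, the filter how many genes are tested, and the last setting drops the size required. Leaving out each library gave 121 to 192, 332 to 381, 82 to 93, 114 to 164 and 89 to 118. The other settings (pseudocount 0.01, median centring, quantile normalization, array weights, no variance trend and all 18 libraries) stayed within 1.5 times each count. The share of calls more positive in PANC1 was 28.5%, and with the size required it ranged from 22.6% with median centring to 33.7% without MIA PaCa-2 control replicate 3. By adjusted p alone it was 59.1%, and the majority direction turned.

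The replicate block within each line gave 138, 349, 86, 124 and 96. Same-numbered control and knockdown libraries did not deviate together (r from -0.155 to 0.057), so the numbers were not taken to pair samples. Of 100 named genes, 64 were tested in all 22 alternatives and the others in fewer, IL32 and TP53INP1 in 18, because they fell below the filter. Where tested, no difference changed sign, and calls were lost in 55 cases, in 18 genes. With a pseudocount of 1 alone these were TTYH1, NUPR1, TP53INP1, COL6A2, WIPI1 and ASNS. Without MIA PaCa-2 control replicate 2 they were ASPM (-0.71), EDEM1 (-0.96), DNAJB9 (-0.82), ITGAV (-0.67), CXCL1 (-0.92), KRT8 (0.84) and OASL (0.996), each lost in other settings too. Other calls near the size required were lost without MIA PaCa-2 control replicate 1 (TNIP1 at -0.96, ATF3 at -0.96) or 3 (NDRG1 at -0.98, TNIP1 at -0.99, ATF3 at -0.92), MIA PaCa-2 knockdown replicate 3 (ATF3 at -0.99), PANC1 control replicate 1 (ATF3 at -0.95), and PANC1 knockdown replicate 1 (PSMB9 at -0.998, ATF3 at -0.97) or 3 (ETV4 at -0.97). A pseudocount of 1 gave -0.78 for ATF3 and -0.57 for NDRG1. MIA PaCa-2 control replicate 2 had a weight of 0.0207 in a fit with array weights, where the others had 1.04 to 2.45. Depth limits the lowest genes most, such as IL32 and GDF15 in MIA PaCa-2.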

Other observations

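Genes that fell in PANC1 and rose in MIA PaCa-2 tended to start higher in PANC1. Over the 5348 tested genes with the same implied length in both lines, control FPKM was higher in PANC1 for 51.6%. Of the 43 such genes that fell in PANC1 and rose in MIA PaCa-2, it was higher in 34 (79.1%), and after knockdown in 12 (27.9%). Of the 49 that rose in MIA PaCa-2 only, it was higher in 38 (77.6%) before and 20 (40.8%) after. In the reverse kind, 2 of 13 started higher in PANC1 and 10 were higher there after knockdown. The same controls enter both the level and the difference, so these shares are a description without a test.

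Over the whole table, 10360 genes were at 0 in all PANC1 libraries and 6064 in all MIA PaCa-2 libraries. A listed 0 cannot be told apart from a gene that was not counted in that line. Genes at 1 FPKM or more in 1 line were not tested in the comparison. Of the 1349 that reached it only in PANC1, 246 were listed at 0 in all 6 MIA PaCa-2 libraries, and of the 1205 that reached it only in MIA PaCa-2, 697 were listed at 0 in all 6 PANC1 libraries. PTPRC, the leukocyte common antigen CD45, was among those of MIA PaCa-2, with means of 3.51 FPKM in the controls and 6.002 FPKM after knockdown against 0.027 and 0.0305 FPKM in PANC1, and it is named after its values were seen.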
